A study of Rattus norvegicus with 12 samples.

Results

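The genes described here are 10 genes of the NRF2 antioxidant response and of glutathione synthesis, measured on expression arrays of cultured rat astrocytes. They were taken from a named list: Gclm, Gclc, Hmox1, Nqo1, Txnrd1, Srxn1, Slc7a11, Nfe2l2, Keap1 and Gsr. In the array annotation each was paired alone with exactly 1 row of the value table, so 10 of 10 entered, among 18166 genes tested. The cells were primary astrocytes from the cerebral cortex of 1 day-old Sprague-Dawley rats, with 3 arrays in each of 4 groups. The group siSHP_IFNg_GW received siRNA against SHP (taken to be the orphan nuclear receptor whose gene is Nr0b2), interferon-γ and a compound that the labels call GW. The group siCon_IFNg_GW received control siRNA, interferon-γ and GW. The group siCon_IFNg received control siRNA and interferon-γ, and siCon received control siRNA with no agent named in its labels. Transfection with an siRNA was thus shared by all 4 groups, and exposure lasted 3 h. The label GW was not resolved to a compound, and no group received GW without interferon-γ. Each array carries a title number, 1, 2 or 3, that is shared by 1 array of each group. According to the series description 4 of the arrays were taken over from an earlier series. It was not resolved which these are, so what a title number stands for is not known. The labels do not say whether the 3 arrays of a group are of different cultures. The p-values therefore reflect array-to-array spread that could be purely technical.

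NRF2, the product of Nfe2l2, is a transcription factor that is held in the cytoplasm by KEAP1 and handed to a ubiquitin ligase for degradation. When reactive compounds modify KEAP1, NRF2 accumulates, pairs with small MAF proteins and binds antioxidant response elements near genes for glutathione synthesis, thioredoxin recycling and quinone reduction. Astrocytes are known for strong use of this pathway and for supplying glutathione precursors to neurons.

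Values are log2 expression, so a difference of 1 is a doubling. The 10 genes lay above background on average: background was set at 5.34, the 95th percentile of the mean level of 1344 olfactory and vomeronasal receptor genes, and the lowest single value of the 10 was 5.75 (Srxn1 in siCon_IFNg replicate 2). Of the astrocyte markers measured, 9 of 9 had mean levels above background, but so did 14 of 14 microglia markers. So did 7 of 9 meningeal and vascular, 7 of 8 oligodendrocyte and 6 of 9 neuron markers. The culture protocol included a serum-free step meant to remove microglia and meningeal cells, yet changes cannot be assigned to astrocytes alone. In such bulk samples fewer cells of a type and less RNA per cell cannot be told apart. Nr0b2, the target of the SHP siRNA, was at 4.96 ± 0.16 in siSHP_IFNg_GW and 4.80 ± 0.11 in siCon_IFNg_GW (SD, n = 3 each). Both levels are under the background limit, so these arrays give no check of the knockdown. In each of the 4 groups the array numbered 1 differed widely from the other two, as described further on. Values are therefore given by title number, and limma results with title number as a block, or without number 1, are set beside the results of the 4 group means where they differ in a call.

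**Figure D1:**
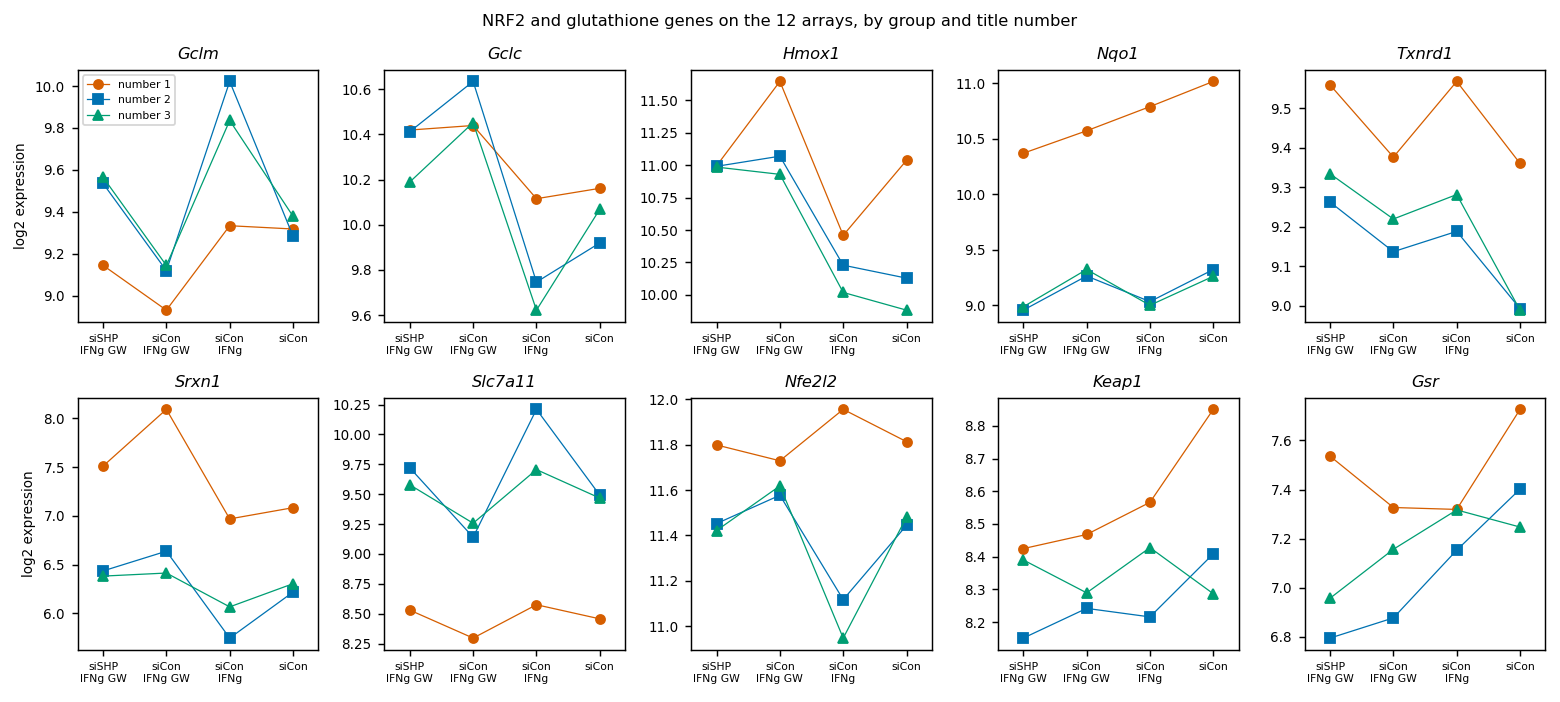
Log2 expression (vertical axes, a separate scale for each gene) of the 10 genes on 12 arrays, by group along the horizontal axes; each point is 1 array, and lines join arrays of the same title number. Gclc was higher on every siCon_IFNg_GW array than on any siCon_IFNg array and Gclm lower, while Nqo1 and Slc7a11 were split by title number 1.

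Glutamate-cysteine ligase carries out the rate-limiting step of glutathione synthesis and is built from a catalytic subunit, Gclc, and a modifier subunit, Gclm, that makes the enzyme more efficient. With GW added to interferon-γ the 2 subunit transcripts differed in opposite directions. Gclc was at 10.44, 10.63 and 10.45 in siCon_IFNg_GW replicates 1, 2 and 3, against 10.12, 9.75 and 9.62 in siCon_IFNg. The groups did not overlap, and the distance was smallest in number 1. Gclc rose 1.60-fold (log2 0.68, SE 0.13, limma adjusted p = 0.047, n = 3 arrays per group), with a difference above 0 in 3 of 3 title numbers. Gclm was at 8.93, 9.12 and 9.14 in siCon_IFNg_GW, against 9.33, 10.02 and 9.84 in siCon_IFNg. These groups did not overlap either. The difference in Gclm was -0.67 (SE 0.17) with a limma adjusted p of 0.12 on the 4 group means and 0.012 with title number as a block. Within title numbers 1, 2 and 3 the differences were 0.32, 0.89 and 0.83 for Gclc and -0.40, -0.90 and -0.69 for Gclm.

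Leaving out single arrays moved the call of Gclc more than its size. The call was kept without siCon_IFNg replicate 1 (adjusted p = 0.0085, where Gclm also passed with 0.013). It was lost without siCon_IFNg_GW replicate 1 (0.078), siCon_IFNg replicate 2 (0.19), siCon_IFNg_GW replicate 2 (0.22), siCon_IFNg replicate 3 (0.19) or siCon_IFNg_GW replicate 3 (0.13). The difference stayed between 0.58 and 0.82 in these fits. The call was also lost with arrays centred on their medians (0.66, limma adjusted p = 0.15) and in a fit of the 2 groups alone (0.28).

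The reference promoters of both subunit genes, Srxn1 and Slc7a11 are shown because these 4 genes passed with the block between siCon_IFNg_GW and siCon_IFNg and have a RefSeq sequence of assembly GRCr8; Hmox1, which passed too, has no entry in the table. Each is the 250 bases before the annotated start, 5′ to 3′ on the strand of the gene. Capitals mark a match on either strand to the core of the antioxidant response element, TGACNNNGC, or to the AP-1 site TGANTCA; the 2 motifs can overlap, but no match overlapped another in these 4.
Gclm, chr2:213031885-213032134, plus strand: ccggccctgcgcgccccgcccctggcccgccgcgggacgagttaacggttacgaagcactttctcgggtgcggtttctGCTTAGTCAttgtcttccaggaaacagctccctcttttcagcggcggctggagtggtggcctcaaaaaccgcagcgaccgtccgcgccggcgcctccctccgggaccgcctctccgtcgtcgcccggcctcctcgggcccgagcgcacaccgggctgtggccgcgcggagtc
Gclc, chr8:87510226-87510475, plus strand: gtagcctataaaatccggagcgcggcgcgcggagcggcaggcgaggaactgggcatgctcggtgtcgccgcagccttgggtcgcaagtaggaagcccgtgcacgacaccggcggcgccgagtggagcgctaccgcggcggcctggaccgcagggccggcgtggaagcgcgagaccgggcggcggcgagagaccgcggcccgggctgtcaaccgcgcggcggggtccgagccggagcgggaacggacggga
Srxn1, chr3:161064562-161064811, plus strand: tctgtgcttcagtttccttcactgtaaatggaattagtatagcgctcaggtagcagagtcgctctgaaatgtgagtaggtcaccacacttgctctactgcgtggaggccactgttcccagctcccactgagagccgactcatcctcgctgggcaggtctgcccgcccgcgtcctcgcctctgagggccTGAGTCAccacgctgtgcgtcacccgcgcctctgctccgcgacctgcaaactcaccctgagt
Slc7a11, chr2:136668265-136668514, minus strand: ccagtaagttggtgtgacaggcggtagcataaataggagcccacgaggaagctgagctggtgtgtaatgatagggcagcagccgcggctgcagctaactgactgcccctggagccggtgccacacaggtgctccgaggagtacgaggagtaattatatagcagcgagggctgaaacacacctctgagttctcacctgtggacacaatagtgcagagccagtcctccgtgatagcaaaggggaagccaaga
The Gclm match reads TGACTAAGC on the opposite strand and spans bases -172 to -164 from the start. The Gclc and Slc7a11 windows held neither motif. The Srxn1 match is an AP-1 site, TGAGTCA, at bases -62 to -56. Of the 10 genes 8 had a promoter in the table, which holds 33469 windows. The element core was found in 2 of the 8 (Gclm and Txnrd1, in Txnrd1 as TGACAAAGC on the opposite strand of 1 of its 2 promoters) and in 10.08% of all windows. The AP-1 site was found in 1 of the 8 and in 6.34% of all windows. A match is a description of letters, and no match says only that these letters are not in this window.

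Slc7a11, the light chain of the cystine/glutamate antiporter that brings in the cysteine for glutathione, had the same order of groups as Gclm between the 2 interferon-γ groups. It was at 8.30, 9.14 and 9.26 in siCon_IFNg_GW, against 8.57, 10.21 and 9.71 in siCon_IFNg. The value with GW was lower within each title number, but the groups overlapped, with both arrays numbered 1 low. The difference was -0.60 (SE 0.47), with a limma adjusted p of 0.75 on the group means, 0.026 with the block and 0.017 without number 1. Gsr, which regenerates reduced glutathione from its oxidised form, was at 7.33, 6.88 and 7.16 in siCon_IFNg_GW, against 7.32, 7.15 and 7.32 in siCon_IFNg. Its difference of -0.14 had a 95% interval of -0.57 to 0.29 and did not pass in any of the 3 fits.

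Hmox1, which degrades haem and is a classical NRF2 target, was at 11.65, 11.07 and 10.93 in siCon_IFNg_GW, against 10.46, 10.23 and 10.02 in siCon_IFNg. The groups did not overlap. The difference was 0.98 (1.97-fold, SE 0.27, limma adjusted p = 0.16; 0.012 with the block and 0.0023 without number 1). Srxn1, the sulfiredoxin that repairs over-oxidised peroxiredoxins, was at 8.09, 6.64 and 6.41 in siCon_IFNg_GW, against 6.97, 5.75 and 6.07 in siCon_IFNg. It was higher with GW by 1.12, 0.89 and 0.35 in title numbers 1, 2 and 3, and the groups overlapped, with both arrays numbered 1 high. The mean difference was 0.79 (SE 0.48, limma adjusted p = 0.62; 0.016 with the block and 0.017 without number 1).

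Nqo1, a quinone reductase, was at 10.57, 9.26 and 9.32 in siCon_IFNg_GW, against 10.79, 9.03 and 9.00 in siCon_IFNg. It was lower with GW in number 1 and higher in numbers 2 and 3. Its difference of 0.11 had a 95% interval of -1.29 to 1.52, and its SD over the 3 arrays was 0.74 in siCon_IFNg_GW and 1.02 in siCon_IFNg. Txnrd1, the cytosolic thioredoxin reductase, had -0.10 with an interval of -0.41 to 0.21. Keap1 had -0.07 with an interval of -0.41 to 0.27.

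Nfe2l2 itself was at 11.73, 11.58 and 11.62 in siCon_IFNg_GW, against 11.96, 11.12 and 10.95 in siCon_IFNg. The difference was 0.30 (SE 0.23, limma adjusted p = 0.73; 0.25 with the block). It was -0.23 in number 1 and 0.46 and 0.67 in numbers 2 and 3, and without number 1 Nfe2l2 rose by 0.57 (limma adjusted p = 0.0046). The difference between number 1 and the others was itself tested: it was -0.79 (SE 0.15, limma adjusted p = 0.031). Among the 10 genes this was the 1 that passed that test in this comparison, where 3.02% of all genes passed. The test takes its spread from numbers 2 and 3 and assumes that the lone array numbered 1 varies like them.

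In counts, 1 of the 10 genes (Gclc) passed between siCon_IFNg_GW and siCon_IFNg by limma on the group means, where 0.886% of all genes passed and 0.633% were higher. With the block 5 passed, against a background of 6.55%. Gclc, Hmox1 and Srxn1 were higher (3.64% of all genes) and Gclm and Slc7a11 lower (2.91%). Without number 1 the same 5 and Nfe2l2 passed, 6 in all, against 11.5%. Gclc, Gclm and Hmox1 were the 3 whose groups did not overlap, against 15.3% of all genes. The median difference of the 10 genes was 0.02, and 0.0030 over all genes tested. Of the 10 differences 5 were above 0 and 5 below.

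**Figure D2:**
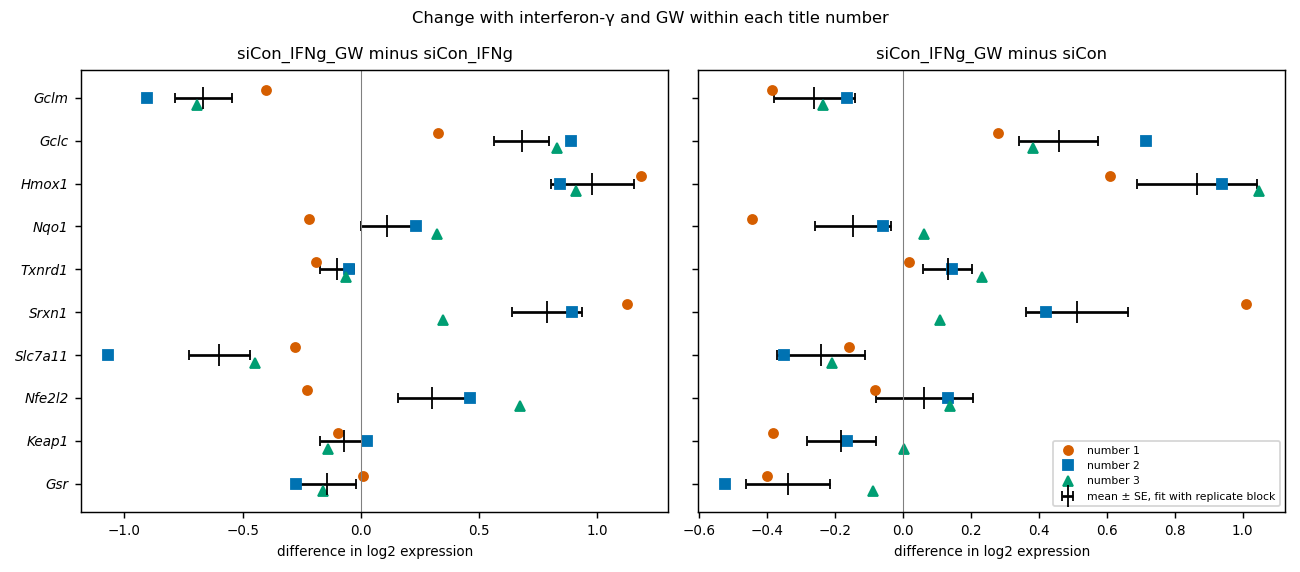
Differences in log2 expression (horizontal axes) of siCon_IFNg_GW from siCon_IFNg on the left and from siCon on the right, for each gene; coloured points are the 3 title numbers and black bars the mean with the SE of the limma fit with title number as a block. On the left Gclm and Slc7a11 lie below 0 and Gclc, Hmox1 and Srxn1 above 0 in 3 of 3 numbers.

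Microglia markers moved in the same comparison. Of 14 markers, 10 were lower and 0 higher with the block (2.91% and 3.64% of all genes), with a median difference of -0.46. By limma on the group means 0 passed either way, with 8 at an unadjusted p under 0.05 (11.4% of all genes). Their summed level, given as the log2 of the sum, was 12.66 to 12.95 in siCon_IFNg_GW and 13.15 to 13.48 in siCon_IFNg, and none of the 14 was at background. The summed astrocyte markers were at 13.70 to 14.13 in siCon_IFNg_GW and 13.87 to 14.19 in siCon_IFNg. The part of microglia in the differences of the 10 genes was not tested.

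The comparison of siCon_IFNg with siCon asks what interferon-γ alone changed. None of the 10 genes passed by limma on the group means or with the block (0 of 10, where 0.121% and 0.936% of all genes passed). At an unadjusted p under 0.05 there was 1 (Gclm) on the group means, where 5.49% of all genes had such a p, and 4 with the block, where 11.9% did. Gclm was at 9.33, 10.02 and 9.84 in siCon_IFNg, against 9.32, 9.28 and 9.38 in siCon. The 2 values numbered 1 differed by 0.016, and those of numbers 2 and 3 by 0.74 and 0.46. Its mean difference was 0.40 (SE 0.17, limma adjusted p = 0.85; 0.20 with the block), and without number 1 Gclm rose by 0.60 (0.0078). There Nfe2l2 fell by 0.43 (limma adjusted p = 0.028), having 11.12 and 10.95 in siCon_IFNg against 11.44 and 11.48 in siCon. Those 2 were the genes of the 10 that passed without number 1, where 4.71% of all genes did.

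The other members did not pass in any of the 3 fits. Slc7a11 had 0.36 (SE 0.47), Txnrd1 0.23 (SE 0.14), Gclc -0.22 (SE 0.13) and Hmox1 -0.11 (SE 0.27). Hmox1 turned to 0.12 without number 1, where siCon replicate 1 (11.04) lay far above siCon replicates 2 and 3 (10.13 and 9.88). This comparison and that of GW with interferon-γ share the siCon_IFNg arrays with opposite sign. Opposite signs of Gclm, Gclc and Nfe2l2 in the 2 comparisons are therefore not independent of each other.

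The mean difference of siCon_IFNg_GW from siCon has no siCon_IFNg array in it. Its SE and p do depend on those arrays, because the fit takes the spread from all 4 groups. Hmox1 was at 11.65, 11.07 and 10.93 in siCon_IFNg_GW, against 11.04, 10.13 and 9.88 in siCon. It was higher within each title number, by 0.61, 0.94 and 1.05. The mean difference was 0.86 (1.82-fold, SE 0.27, limma adjusted p = 0.21; 0.019 with the block). It passed on the group means when siCon replicate 1 was left out (1.21, adjusted p = 0.039). Gclc was at 10.44, 10.63 and 10.45 in siCon_IFNg_GW, against 10.16, 9.92 and 10.07 in siCon. Those groups did not overlap, with a difference of 0.46 (SE 0.13, limma adjusted p = 0.18; 0.045 with the block).

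Gclm was at 8.93, 9.12 and 9.14 in siCon_IFNg_GW, against 9.32, 9.28 and 9.38 in siCon. The groups did not overlap (nor did those of Gclc, 2 members against 18.2% of all genes), but the difference of -0.26 did not pass on the group means (limma adjusted p = 0.65) or with the block (0.23). The difference of Srxn1 was 0.51 (SE 0.48; limma adjusted p = 0.80, and 0.070 with the block), of which number 1 gave 1.01 and numbers 2 and 3 gave 0.42 and 0.11. In all, 0 of 10 passed on the group means (0.864% of all genes) and 2, Gclc and Hmox1, with the block (6.84%) and without number 1 (5.66%). At an unadjusted p under 0.05 there were 2 on the group means, and 11.3% of all genes. The other 6 members had differences between -0.34 (Gsr) and 0.13 (Txnrd1). Of the microglia markers, 14 of 14 had differences below 0 here, with a median of -0.59, and 13 were lower with the block (3.9% of all genes). The part of microglia in the differences of the members was not tested.

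The comparison of siSHP_IFNg_GW with siCon_IFNg_GW asks what the SHP siRNA changed under interferon-γ and GW. By limma 0 of 10 members and 0 of all genes (0%) passed, on the group means and with the block. At an unadjusted p under 0.05 there were 0 members (2.29% of all genes) on the group means and 3 with the block (5.35%): Gclm, Slc7a11 and Nqo1. Without number 1 there were again 0 members, where 1.47% of all genes passed. Gclm was at 9.14, 9.54 and 9.56 in siSHP_IFNg_GW, against 8.93, 9.12 and 9.14 in siCon_IFNg_GW. It was higher within each title number, by 0.21, 0.42 and 0.42. The groups of Gclm were barely apart, with 9.14422 on siSHP_IFNg_GW replicate 1 and 9.14365 on siCon_IFNg_GW replicate 3. The mean difference of Gclm was 0.35, with a 95% interval of -0.03 to 0.73. Gclc was at 10.42, 10.41 and 10.19 in siSHP_IFNg_GW, against 10.44, 10.63 and 10.45 in siCon_IFNg_GW. It was lower within each number (-0.020, -0.22 and -0.26), with a mean difference of -0.17 and an interval of -0.47 to 0.13. These were the 2 members whose groups did not overlap, against 6.47% of all genes. For Gclc the nearest values, both numbered 1, were 10.42 and 10.44. This comparison and that of siCon_IFNg_GW with siCon_IFNg share the siCon_IFNg_GW arrays with opposite sign. Opposite signs of members such as Gclm, Gclc and Slc7a11 in the 2 comparisons are therefore not independent of each other.

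Hmox1 was at 10.99 on each of the 3 siSHP_IFNg_GW arrays (SD 0.0048), against 11.65, 11.07 and 10.93 in siCon_IFNg_GW. The difference of -0.22 had an interval of -0.83 to 0.38, and it was -0.65, -0.08 and 0.06 in title numbers 1, 2 and 3. Slc7a11 was higher within each number, by 0.23, 0.58 and 0.32, and Nqo1 lower (-0.20, -0.31 and -0.34). Their mean differences were 0.38 (95% interval -0.66 to 1.42) and -0.28 (-1.69 to 1.12) on the group means. With the block their SE were 0.13 and 0.11, with unadjusted limma p of 0.015 and 0.030 and adjusted p of 0.80 and 0.90. The intervals for Keap1 (-0.35 to 0.33) and Nfe2l2 (-0.59 to 0.42) lay on both sides of 0, and a p that misses the threshold does not show that the groups were alike.

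Set against the groups without GW, siSHP_IFNg_GW had 0 of 10 members past the threshold on the group means. The background was 1.2% of all genes against siCon and 0.303% against siCon_IFNg. At an unadjusted p under 0.05 there was 1 member against siCon and 2 against siCon_IFNg, and 12.8% and 8.8% of all genes. With the block, Txnrd1 was higher and Nqo1 lower against siCon (background 8.64%). With the block, Gclc and Hmox1 were higher against siCon_IFNg (background 3.08%). Txnrd1 was at 9.56, 9.26 and 9.33 in siSHP_IFNg_GW, against 9.36, 8.99 and 8.99 in siCon, a difference of 0.27 (limma adjusted p = 0.048 with the block). Nqo1 was at 10.37, 8.96 and 8.99 in siSHP_IFNg_GW, against 11.02, 9.32 and 9.26 in siCon, a difference of -0.43 (limma adjusted p = 0.042 with the block). Against siCon_IFNg, Gclc differed by 0.51 and Hmox1 by 0.75 (limma adjusted p = 0.046 and 0.049 with the block). Without number 1, Hmox1, Txnrd1 and Nqo1 passed against siCon (10.7% of all genes), and Gclc, Hmox1, Nfe2l2 and Gclm against siCon_IFNg (6.21%).

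Over the 4 groups the order of mean levels was the same for Hmox1, Srxn1 and Gclc: siCon_IFNg_GW was highest, then siSHP_IFNg_GW, siCon and siCon_IFNg. Means of Hmox1 were 10.99 ± 0.0048, 11.21 ± 0.38, 10.24 ± 0.22 and 10.35 ± 0.61 in siSHP_IFNg_GW, siCon_IFNg_GW, siCon_IFNg and siCon (SD, n = 3 each). Neither the 2 groups with GW nor the 2 without it passed the test against each other. Gclc means were 10.34 ± 0.13, 10.51 ± 0.11, 9.83 ± 0.26 and 10.05 ± 0.12 in the same groups. Gclm and Slc7a11 had the order siCon_IFNg, siSHP_IFNg_GW, siCon and siCon_IFNg_GW from high to low. Gclm means were 9.41 ± 0.23, 9.06 ± 0.12, 9.73 ± 0.36 and 9.33 ± 0.048 in siSHP_IFNg_GW, siCon_IFNg_GW, siCon_IFNg and siCon. Nqo1, Keap1 and Gsr had their highest mean in siCon and their lowest in siSHP_IFNg_GW. For each of these 8 genes, no pair of neighbours in the order passed by limma on the group means. The neighbours siSHP_IFNg_GW and siCon differed for Hmox1 by 0.64, with a 95% interval of 0.04 to 1.24 before adjustment and a limma adjusted p of 0.35. After the mean of each title number was subtracted, Pearson's r over the 12 arrays was 0.94 between Gclm and Slc7a11, -0.78 between Gclm and Gclc, and 0.79 between Gclc and Hmox1. These arrays share 4 treatments and 3 numbers, so the values describe this set of arrays.

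Hmox1 had the widest range of group means (0.98). The 5 genes whose values followed it most closely over the 12 arrays, by the same r, were Elavl1 (0.98), an RNA-binding protein gene, Tob1 (0.98), an antiproliferative gene, Trmt10c (0.96), of mitochondrial tRNA processing, Gcc1 (0.96), of the Golgi, and Tsc22d2 (0.96). Mean levels of Trmt10c were 7.27, 7.45, 6.86 and 6.98 in siSHP_IFNg_GW, siCon_IFNg_GW, siCon_IFNg and siCon, and those of Tob1 10.24, 10.29, 9.52 and 9.61. Elavl1 followed with a much smaller range, at 9.43, 9.50, 9.27 and 9.30.

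Levels of most members also differed by title number. Over the 4 groups, 9 of 10 differed between arrays numbered 1 and those numbered 2 and 3 by limma with group in the model, 7 higher and 2 lower, against 39.2% of all genes (21.3% higher and 17.9% lower). Nqo1 was at 10.37 to 11.02 on the 4 arrays numbered 1, and at 8.96 to 9.32 on the 8 arrays numbered 2 and 3. These ranges did not overlap, with a difference of 1.55 (2.92-fold, SE 0.08, limma adjusted p = 1.89e-07), positive in 4 of 4 groups. In size this exceeded the same difference of 99.0% of genes. Srxn1 was at 6.97 to 8.09 on arrays numbered 1 and at 5.75 to 6.64 on the others, higher by 1.14 (SE 0.11, limma adjusted p = 9.02e-06). Slc7a11 was at 8.30 to 8.57 on arrays numbered 1 and at 9.14 to 10.21 on the others, lower in 4 of 4 groups (-1.11, SE 0.10, limma adjusted p = 6.44e-06).

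The other differences between numbers were smaller. Hmox1 (0.50), Nfe2l2 (0.44), Gsr (0.36), Txnrd1 (0.29) and Keap1 (0.28) were higher in number 1, with limma adjusted p of 0.0095, 0.0048, 0.0085, 0.0012 and 0.013. Gclm was lower (-0.30, limma adjusted p = 0.014), though with arrays centred on their medians it had -0.21 and did not pass (0.080). Gclc did not pass (0.15, limma adjusted p = 0.19). The difference of Hmox1 between numbers was 0.0065 in siSHP_IFNg_GW and 1.03 in siCon. The difference of siSHP_IFNg_GW from siCon was -0.04 in number 1 and 0.86 and 1.10 in numbers 2 and 3 (limma adjusted p = 0.052 for number 1 against the others). Cell markers differed between the numbers as well. Of 14 microglia markers 10 were higher and 2 lower in number 1, where 21.3% of all genes were higher and 17.9% lower. Of 9 meningeal and vascular markers 7 were lower and 0 higher (median -1.73). Of 9 astrocyte markers 5 were lower and 2 higher (median -0.20). The summed meningeal and vascular markers were at 10.89 to 11.26 on the arrays numbered 1 and reached 12.43 to 12.67 on others of the same groups, with Lum and Cldn5 at background. The part of these cells in the differences of the 10 genes was not tested.

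**Figure D3:**
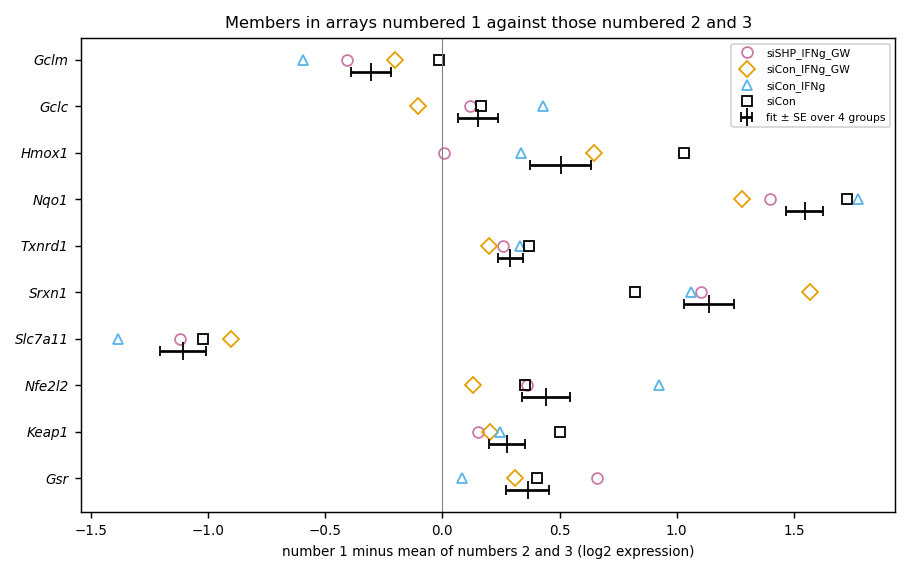
Level on the array numbered 1 minus the mean of the arrays numbered 2 and 3 (horizontal axis, log2 expression), for each gene and each of the 4 groups (open symbols), with the limma estimate and SE over the groups (black bars). Nqo1 and Srxn1 lie to the right of 0 and Slc7a11 to the left in 4 of 4 groups.

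Other genes of the pathway were taken from 4 lists, and 5 of their 77 measured genes passed in siCon_IFNg_GW against siCon_IFNg on the group means (0.886% of all genes). Mafk, a small MAF partner of NRF2, rose by 0.74 (SE 0.09, limma adjusted p = 0.0077) to 8.44 in siCon_IFNg_GW, against 7.70 in siCon_IFNg. Bach2, a repressor related to Bach1 that also pairs with small MAF proteins, rose by 0.68 (SE 0.09, limma adjusted p = 0.011). These were 2 of 15 measured partners and regulators, with 0 lower (0.633% of all genes were higher and 0.253% lower). Against siCon the same 2 rose, Mafk by 1.13 (limma adjusted p = 2.64e-04) and Bach2 by 0.64 (0.013), and with the block 6 were higher and 0 lower (2.94% of all genes were higher). In siSHP_IFNg_GW against siCon, Mafk rose by 1.12, Bach1, a repressor that competes with NRF2 for its elements, by 0.59, and Bach2 by 0.50 (limma adjusted p = 1.95e-04, 0.017 and 0.032). With the block 4 of the 15 were higher there and 1 was lower (8.64% of all genes passed, and 5.34% were lower). Against siCon_IFNg, siSHP_IFNg_GW had Mafk higher by 0.73 and Bach2 by 0.54 (limma adjusted p = 0.012 and 0.047).

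Chac1, an enzyme that breaks down glutathione, rose 2.68-fold in siCon_IFNg_GW against siCon_IFNg (log2 1.42, SE 0.25, limma adjusted p = 0.031) and 3.90-fold against siCon (limma adjusted p = 0.0074). Gpx8, a peroxidase of the endoplasmic reticulum, fell by 0.42 and by 0.44 in the same comparisons (limma adjusted p = 0.043 and 0.033). Of the 22 measured genes of glutathione metabolism outside the 10, these were the 2 that passed in each (0.886% and 0.864% of all genes). In siSHP_IFNg_GW against siCon, Chac1 rose by 1.81 (limma adjusted p = 0.011), while Gpx8 and Esd, which hydrolyses S-formylglutathione, fell by 0.47 and 0.48 (0.024 and 0.040). Against siCon_IFNg, 0 of the 22 passed by limma on the group means (0.303% of all genes). There were 5 at an unadjusted p under 0.05 (8.8% of all genes), and 4 passed with the block (3.08%). Gpx8 had -0.45 (limma adjusted p = 0.052 on the group means, 0.018 with the block and 0.021 without number 1).

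Of 23 other NRF2 targets, 1 passed in siCon_IFNg_GW against siCon_IFNg, where 0.886% of all genes passed and 0.253% were lower. It was the export pump gene Abcc4, which fell by 0.73 (SE 0.11, limma adjusted p = 0.013). The list's median difference was -0.21, against 0.0030 over all genes, and 21 of 23 differences were below 0. The other glutathione genes (median -0.20, 18 of 22 below 0) and the other antioxidant genes (-0.17, 14 of 17 below 0) had medians below 0 as well. Against siCon, Abcc4 fell by 0.72 (limma adjusted p = 0.014), and with the block 10 of 23 were lower and 0 higher (3.9% of all genes were lower), with a median of -0.34. In siSHP_IFNg_GW against siCon, Abcc4 fell by 0.66 (limma adjusted p = 0.017), and with the block 13 of 23 were lower and 0 higher (5.34% of all genes were lower). Against siCon_IFNg it fell by 0.68 in siSHP_IFNg_GW (limma adjusted p = 0.039). With the block 1 of the 23 was higher there and 3 were lower (3.08% of all genes passed). Microglia markers had medians of -0.46, -0.59, -0.44 and -0.38 in these 4 comparisons, and their part in the differences was not tested.

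Of 17 other antioxidant genes, 0 passed in siCon_IFNg_GW against siCon_IFNg by limma on the group means (0.886% of all genes). There were 4 at an unadjusted p under 0.05 (11.4% of all genes), and 2 passed with the block (6.55%). The thioredoxin inhibitor Txnip, with the smallest p, was at 9.24 and 10.32 in those groups (-1.09, limma adjusted p = 0.061; 0.0046 with the block). Against siCon, Sesn1, a stress-inducible sestrin, fell by 0.75 in siCon_IFNg_GW and by 0.84 in siSHP_IFNg_GW (limma adjusted p = 0.031 and 0.017). Without number 1 Sesn1 did not pass in siCon_IFNg_GW against siCon (-0.60, limma adjusted p = 0.058). Prdx2, a peroxiredoxin, had the smallest p of the list in siSHP_IFNg_GW against siCon_IFNg (-0.51, limma adjusted p = 0.36). It passed there with the block (0.022) and without number 1 (0.024). In siCon_IFNg against siCon, 0 of the 77 genes passed by limma on the group means or with the block. At an unadjusted p under 0.05 there were 6 and 12 of the 77 in these fits, where 5.49% and 11.9% of all genes had such a p. The smallest p within each list belonged to Ugdh (0.50), Chac1 (0.54), Mafk (0.39) and Sesn1 (-0.64), with limma adjusted p of 0.49, 0.92, 0.22 and 0.17. Without number 1, 1 other NRF2 target was higher and 2 were lower, and 1 other antioxidant gene was higher (4.71% of all genes passed). Ugdh passed there (0.46, limma adjusted p = 0.029). In siSHP_IFNg_GW against siCon_IFNg_GW, 0 of the 77 passed on the group means or with the block. At an unadjusted p under 0.05 there were 2 and 4, where 2.29% and 5.35% of all genes had such a p. The smallest p within each list belonged there to Ugdh (0.26), Cth (-0.26), Bach1 (0.21) and Txnip (0.67). Without number 1 Txnip was higher there by 0.86 (limma adjusted p = 0.0038).

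**Figure D4:**
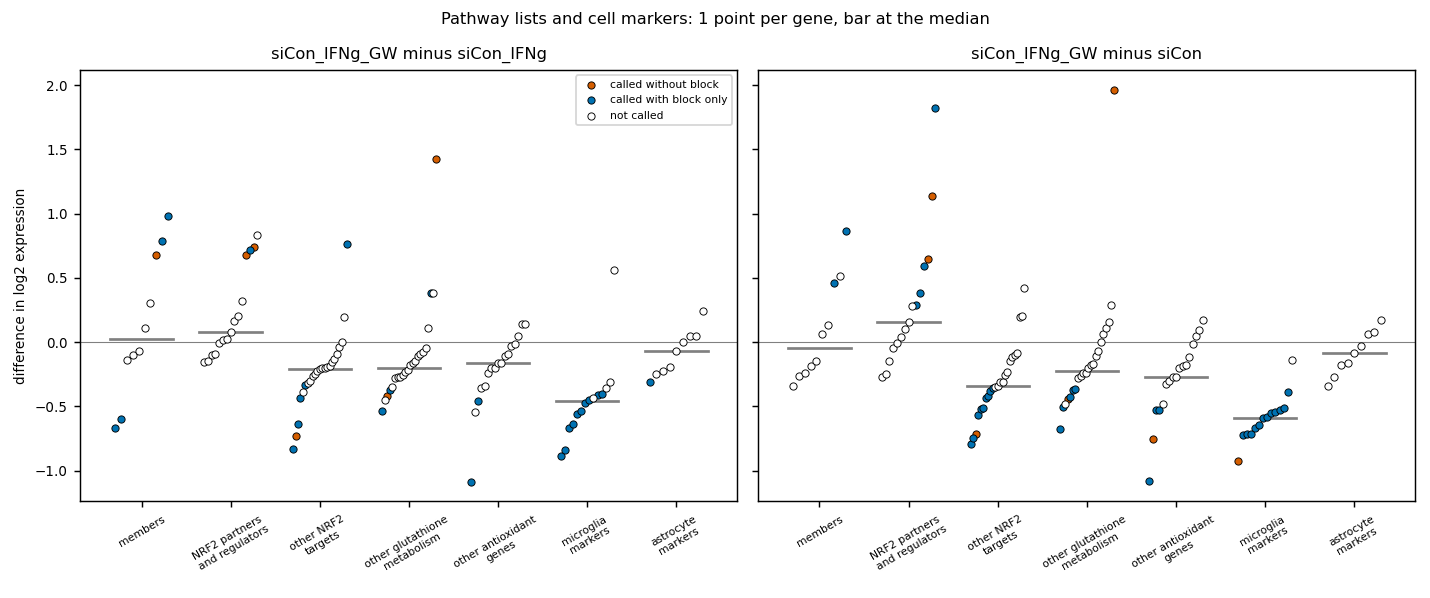
Differences in log2 expression (vertical axes) of siCon_IFNg_GW from siCon_IFNg on the left and from siCon on the right; each point is 1 gene, grouped by list, grey bars are list medians and fill shows which limma fit called the gene at an adjusted p under 0.05. Other NRF2 targets have medians of -0.21 and -0.34, other glutathione genes -0.20 and -0.22, other antioxidant genes -0.17 and -0.27 and microglia markers -0.46 and -0.59, while the 10 members lie on both sides of 0.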

How the data were processed

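Expression came from 12 arrays in 4 groups of 3; groups and title numbers came from the sample titles. The authors deposited log2 expression values, 1 per table row and array; the log base was read from the range of the values (1.01 to 13.43), and background correction and normalization are not given in the sources used here. The table has 36685 rows, of which the annotation names 1 gene for 18511, more than 1 for 575 and none for 17599; 18394 matched the RefSeq gene table of assembly GRCr8 by Entrez ID, which changed 0 symbols. Where a gene had several rows (291 genes) its brightest row on average was taken. Number of arrays limits the precision. Column medians over the genes tested differed by at most 0.083. Where arrays were centred, their medians over all 36685 rows were used instead.

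The members and lists were chosen with earlier results of these data known. Each of 6 comparisons was a contrast of 4 group means over 12 arrays (limma 3.58.1, R 4.3.3); passing means an adjusted p under 0.05 after Benjamini-Hochberg correction across 18166 genes. Intervals are 95% intervals of the limma fit on the group means, not adjusted for multiple tests. They do not use the title numbers, so differences between the numbers widen them. Named genes were the 10 members, up to 4 members of each pathway list that passed (or the 1 with the smallest p), the 5 genes most like the member with the widest range of group means, and Nr0b2. Deviations from the group mean correlated between arrays of the same title number. The r was 0.63 to 0.77 in number 1, 0.48 to 0.58 in number 2 and 0.43 to 0.55 in number 3. Deviations within a group sum to 0, so a shift of number 1 alone makes those of numbers 2 and 3 correlate too. The values therefore cannot say whether numbers 2 and 3 pair their arrays. The block treats title numbers as pairing the arrays, and the fit on group means does not. Alternatives were the replicate block, leaving out number 1 or each array, number 1 as a batch term, 2 scalings, fits of the 2 groups compared, a background filter and means of a gene's rows. The fits on group means and with the block were also run on simulated data. There arrays of the same title number did not vary together, so the run cannot say how these 2 fits compare on the real arrays. Plots used Python 3.11.15 and matplotlib 3.10.9.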

Additional observations from a re-analysis of the deposited data

Results flagged for a closer look

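The change of Nfe2l2 in siCon_IFNg_GW against siCon_IFNg differed between title number 1 and numbers 2 and 3 by -0.79 (SE 0.15, limma adjusted p = 0.031 over all genes). Nfe2l2 was different by -0.23 in number 1 and by 0.46 and 0.67 in numbers 2 and 3. On the siCon_IFNg arrays it was at 11.96 in number 1, against 11.12 and 10.95 in numbers 2 and 3. Number 1 has 1 array per group. With 3 arrays a group, single arrays were not tested as outliers.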

How the results depend on the processing

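With title number as a replicate block, 5 members passed in siCon_IFNg_GW against siCon_IFNg (1 on the group means), and 2 (against 0) in each of siCon_IFNg_GW against siCon, siSHP_IFNg_GW against siCon and siSHP_IFNg_GW against siCon_IFNg. Without the arrays numbered 1 these counts were 6, 2, 3 and 4, and 2 in siCon_IFNg against siCon. With number 1 as a batch term they were 5, 3, 3 and 2. With arrays centred on their medians, or only the 2 groups compared, 0 passed in siCon_IFNg_GW against siCon_IFNg. Leaving out single arrays gave 0 to 2 there, 0 to 1 in siCon_IFNg_GW against siCon and in siSHP_IFNg_GW against siCon_IFNg. The share of all genes that passed moved too, so these shifts are not particular to the members. In siCon_IFNg_GW against siCon_IFNg it was 0.886% on the group means, 6.55% with the block and 11.5% without number 1. The batch term also raised it, and centred arrays or only the 2 groups lowered it. It rose without siCon_IFNg replicate 1 and fell without any other single array of these groups. In siSHP_IFNg_GW against siCon_IFNg_GW the count of members was 0 in the settings run. Quantile normalization, the background filter and the mean of a gene's rows moved no member's call or sign. The 10 had mean levels above the background limit of 5.34, with Srxn1 the nearest, at 5.75 and 6.07 on siCon_IFNg replicates 2 and 3. Whether low signal affected its differences was not tested. The cause of the changes in the counts was not tested either.

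Some signs turned, each for a difference that had not passed on the group means. Without number 1, Hmox1 had 0.12 in siCon_IFNg against siCon, Keap1 0.0049 in siSHP_IFNg_GW against siCon_IFNg_GW (0.0063 with centred arrays) and Nqo1 0.0017 in siCon_IFNg_GW against siCon. Leaving out single arrays turned 40 values, with the ranges that follow. In siCon_IFNg against siCon: Hmox1 -0.35 to 0.23, Keap1 -0.23 to 0.056 and Nqo1 -0.85 to 0.32. In siCon_IFNg_GW against siCon_IFNg: Keap1 -0.16 to 0.011, Nqo1 -0.31 to 0.70 and Txnrd1 -0.18 to 0.0094. In siCon_IFNg_GW against siCon: Nfe2l2 -0.0053 to 0.18, Nqo1 -0.57 to 0.43, Slc7a11 -0.58 to 0.060 and Srxn1 -0.0099 to 0.83. In siSHP_IFNg_GW against siCon_IFNg_GW: Gsr -0.24 to 0.13, Keap1 -0.063 to 0.074, Nqo1 -0.75 to 0.14 and Srxn1 -0.64 to 0.25. In siSHP_IFNg_GW against siCon_IFNg: Keap1 -0.18 to 0.0041, Nqo1 -0.64 to 0.42, Slc7a11 -0.68 to 0.15 and Txnrd1 -0.048 to 0.15. In siSHP_IFNg_GW against siCon: Nfe2l2 -0.14 to 0.095, Nqo1 -0.90 to 0.15, Slc7a11 -0.20 to 0.51 and Srxn1 -0.13 to 0.51.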
